A study of Mus musculus with 2 samples.

Results

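Cone photoreceptors of uninjected *Pde6c*.GFP mice at postnatal day (PN) 24 are described here on their own, as single cells sequenced 1 per well. The mice were C57BL/6, carried the Pde6ccpfl1 mutation and expressed eGFP in cones from the Chrnb4 promoter, and they received no injection. Their library was defined by the plate name at the head of each cell name, which selected 85 of the 151 cells deposited. The other 66 cells came from 1 library of the same line at PN24, which had been given 1 injection of GSK-J4 (10 µM) into the vitreous at PN14, although their cell names hold the word adult. They are used below only to class transcripts by how many of these cells held them, and for values set beside those of the uninjected cells. Cells of the retina were sorted for GFP and against a viability dye into 96-well plates, and 57 well names occurred in both libraries. The number of animals behind the plate was not given in the sources used here. With 1 library, cells are not replicates of a condition, so no test was run. The 95% intervals given beside values are exact Poisson intervals for sums of counts and Clopper-Pearson intervals for shares. The Poisson intervals take in nothing but counting error. The Clopper-Pearson intervals treat the cells as independent draws, which the related wells described below bring into doubt. Neither kind serves as a test.

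Cones carry vision in daylight. A cone opsin activated by light switches on the G protein transducin, which releases the phosphodiesterase PDE6 from its inhibitory subunit, and the fall of cGMP closes cation channels in the plasma membrane. *Pde6c* encodes the catalytic subunit of the cone enzyme. Without a working enzyme, cGMP is not broken down and the cones degenerate early, a cause of achromatopsia in people. Mouse cones hold S-opsin (*Opn1sw*) and M-opsin (*Opn1mw*) in proportions that change from dorsal to ventral retina, and many hold both.

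The 85 cells held 1134089 counts of UMI-tagged 3' and 5' ends over 17774 genes. A cell held from 861 to 98441 counts (median 8082) and from 346 to 8913 genes (median 1804). The 10 deepest cells held 43.4% of all counts, so levels are given as the mean over cells of counts per 10000 counts of the cell, a level that is not scaled by gene length. The mitochondrial share was 0.106 to 8.55% of a cell's counts (median 1.03%). In 3 cells it lay above the limit of 5% stated in the study's methods, which would leave 82 cells. The study itself reports 85 untreated cones after quality control.

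Counts in some wells were related. Wells in 1 plate row that lay 6 columns apart, such as the first and the seventh well of a row, resembled each other. Over the 42 such pairs, the total counts of the partners had a Spearman correlation of 0.893, and the genes per cell one of 0.935. At distances of 1 to 5 columns the correlation of total counts ran from -0.380 to 0.0339. The larger total of a pair was 1.45 times the smaller in the median. In the 24 such pairs of the GSK-J4-treated library, the correlation of total counts was -0.0113.

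The resemblance depended on the transcript. For the 35 genes counted in 90% or more of GSK-J4-treated cells, summed counts of partners had a Spearman correlation of 0.963, while for the 3285 genes with no count in that library it was 0.648. Among genes with at least 100 counts in at least 10 uninjected cells, the 2 cells with the highest level were partners for 27 of 30 genes of the first class (90%), for 7 of 397 of the second (1.76%) and for 443 of the 1464 genes in between (30.3%). Taken as shares of a cell's counts, the correlation between partners was 0.487 for the first class, 0.167 for the second and 0.672 for the genes in between. It was 0.382 for mitochondrial genes, 0.259 for ribosomal protein genes and 0.120 for cone markers. What links the wells was not tested. Values for wells in columns 1 to 6 (42 cells) and in columns 7 to 12 (43 cells) are given below where they bear on a result, since each of these sets holds at most 1 well of every pair.

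**Figure D1:**
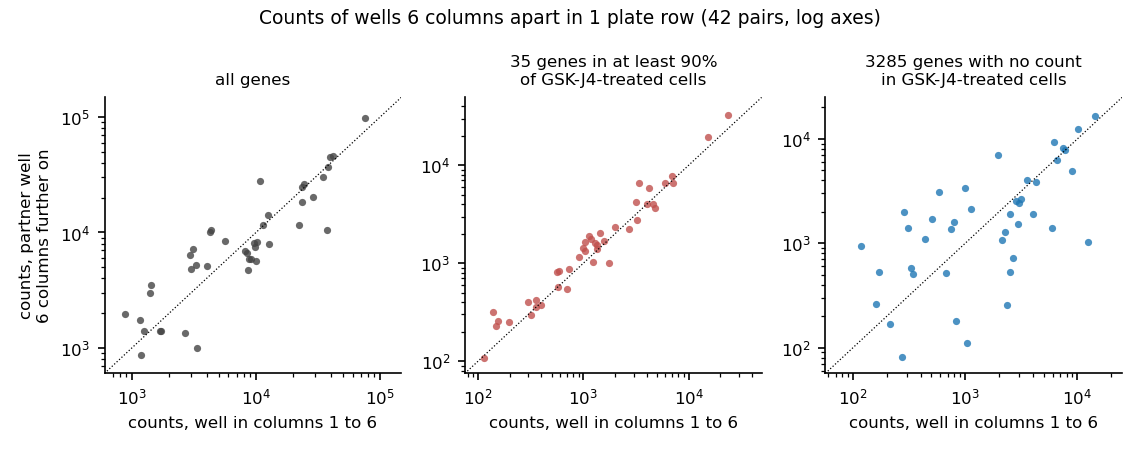
Counts of wells 6 columns apart in 1 plate row, 42 pairs of uninjected cells, with the well in columns 1 to 6 on the x axis and its partner on the y axis (log axes, dotted line at equal counts). Summed over all genes and over the 35 genes found in at least 90% of GSK-J4-treated cells, the points follow the line (Spearman correlation 0.893 and 0.963), and over the 3285 genes without a count in that library they scatter more widely (0.648).

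The check for cones was met at 1 or more counts, a level at which *Gngt2* and *Pde6h* were counted in every cell. All 85 cells had a count of at least 3 of the 6 cone markers *Arr3*, *Opn1sw*, *Pde6h*, *Gnat2*, *Gngt2* and *Gnb3* (100%, interval 95.8 to 100%), and 76 had all 6. The markers took 1.69% of all counts (interval 1.66 to 1.71%) and from 0.219 to 8.91% of a cell's counts (median 1.18%). The median was 1.04% in columns 1 to 6 and 1.29% in columns 7 to 12.

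A single count carried little information for several of these genes. *Opn1mw* was counted in all 85 cells, but in 55 of them exactly once, in cells of 861 to 98441 counts. *Pde6h* was also counted in all 85 cells and exactly once in 50. In total 12 genes had at most 2 cells at 0 and at least 20 cells at exactly 1, among them *Arr3* (25 cells at 1), the rod gene *Pde6g* (25), *Gapdh* (37), *Cox8a* (26) and the mitochondrial genes *mt-Cytb* (52) and *mt-Nd2* (44). For the main genes and groups, shares of cells are therefore given also for 3 or more counts. At that level 58 cells had at least 3 of the 6 cone markers (68.2%), 11 had all 6, and 1 cell, with 877 counts in total, had none.

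Across all genes, 16768 had a count in some cell and 1655 in exactly 1 cell. Of the 17774 genes, 742 (4.17%) were counted in 50% or more of the cells, 86 in 90% or more and 20 in every cell. With 3 or more counts required, 147 genes (0.827%) reached 50% of the cells and 10 reached all of them. These were *Pcdhb13*, *7420701I03Rik*, *Cttnbp2nl*, *Il18*, *Add2*, *Tmsb10*, *Trpm4*, *Prelp*, *Unc45b* and *Shroom2*. All 10 but *Tmsb10* were also counted in 65 or 66 of the 66 GSK-J4-treated cells, and *Tmsb10* in none.

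**Figure D2:**
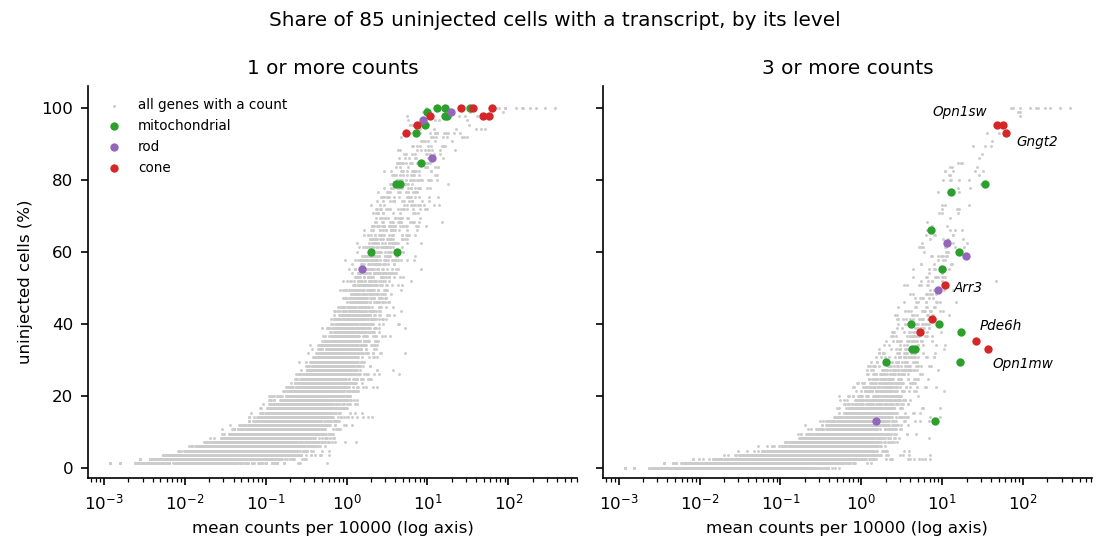
Share of the 85 uninjected cells with a transcript (y axis, %) against its mean level in counts per 10000 counts of the cell (x axis, log), for 1 or more counts (left) and 3 or more counts (right), 1 point per gene. *Gngt2* and *Opn1sw* stay above 90% in both panels, while *Pde6h* and *Opn1mw* fall from 100% to 35.3% and 32.9%.

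The 20 most abundant transcripts took 25.4% of all counts, from 10.0 to 73.4% in a cell (median 19.9%). Only 3 of them, *Gngt2*, *Opn1sw* and *Guca1a*, belong to the lists of cone phototransduction. The highest mean was that of *Pcdhb13*, a clustered protocadherin of the cell surface (378 counts per 10000, lowest cell 128, median 329, highest 1498). Then came the long noncoding RNA *7420701I03Rik* (mean 287.7, median 170), the cortactin-binding protein gene *Cttnbp2nl* (mean 217.6, median 181), the cytokine gene *Il18* (mean 186, median 74.4) and the membrane skeleton gene *Add2* (mean 154, median 123). The sixth, *Tmsb10*, encodes the actin-sequestering thymosin beta 10 (mean 146, lowest 13.7, median 108, highest 607).

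Their loci bear on the counting. In the annotation used here (GENCODE vM21, GRCm38) *Pcdhb13* (chromosome 18, 37442500 to 37446209, plus strand) lies within 3 longer gene models of the same strand, and *Il18* (chromosome 9, 50554827 to 50581840, plus strand) overlaps *Tex12* and *Bco2* on the other strand. *Gm8797*, at rank 19, shares 86.5% of its 45-base windows, the read length used for alignment, with ubiquitin genes such as *Ubb*, so its counts cannot be assigned with certainty. Divided by exonic length, the order of levels changed, although whether length moves counts of tagged 3' and 5' ends was not tested. The highest level per kb was that of *7420701I03Rik*, followed by *Il18*, *Tmsb10*, *Pcdhb13*, *Gm8797* and *Guca1a*, with *Gngt2* at rank 10, *Opn1mw* at 16 and *Opn1sw* at 18.

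The transcripts fell into classes that the selection of the cells did not use. Of the 20, 13 were counted in 90% or more of the 66 GSK-J4-treated cells, and 5 (*Tmsb10*, *Gngt2*, *Opn1sw*, *Guca1a* and *Gm8797*) had none there. *Ccdc93* and *Zfp790* lay in between. Among all 17774 genes, 35 were in the first class and 3285 in the second. All 35 genes of the first class took 21.9% of the uninjected counts, from 6.60 to 73.4% in a cell (median 16.8%), and 30.6% of the GSK-J4-treated counts. The second class took 22.2% of the uninjected counts, from 4.52 to 39.1% in a cell (median 23.8%). The limits of these classes were chosen after the values had been seen.

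Some of the levels rested on few cells. For each of the 13 genes of the first class among the 20, the 2 highest cells were partners 6 columns apart. *7420701I03Rik* made up 54.1% and 47.8% of the counts of its 2 highest cells and 2.85% of the third. *Il18* made up 59.6% and 33.8% of its 2 highest cells and 1.62% of the third. *Zfp790* reached 2405 and 1072 counts per 10000 in 2 partner cells of 1422 and 3517 counts, against a median of 4.07. By contrast, the highest cells of *Tmsb10*, *Gngt2*, *Opn1sw* and *Guca1a* were not partners.

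**Figure D3:**
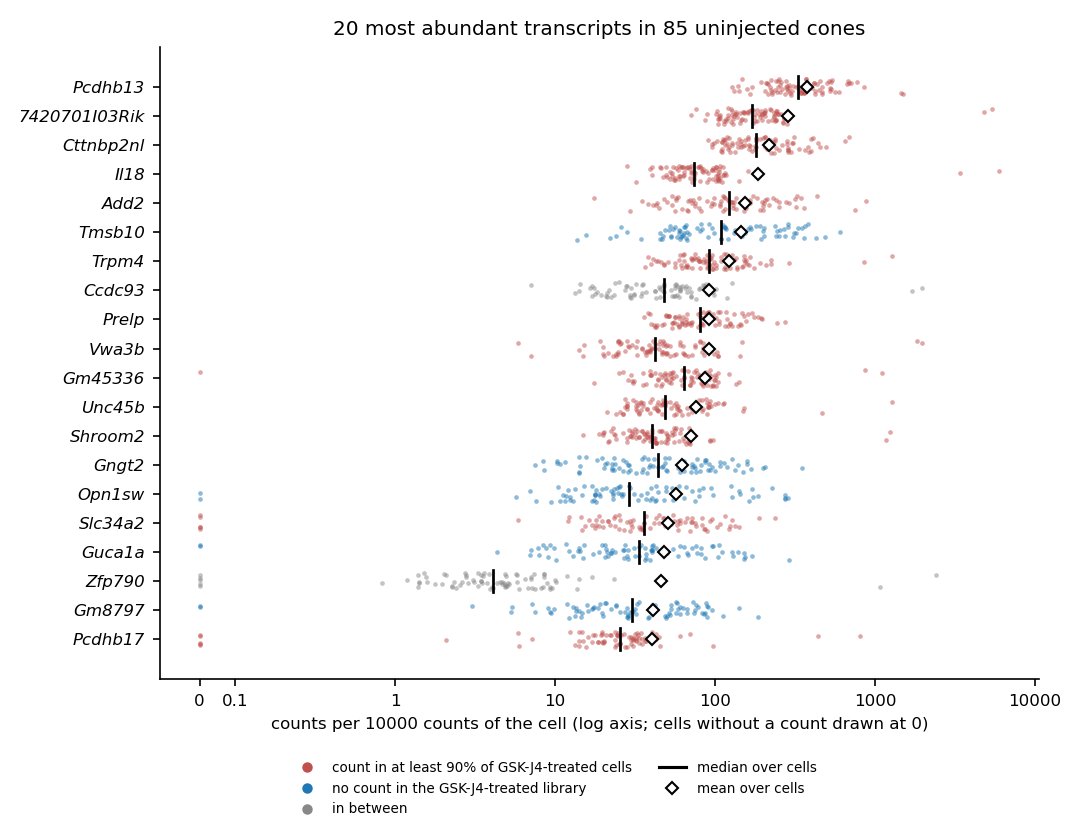
The 20 most abundant transcripts, with 1 point per uninjected cell in counts per 10000 counts of the cell (log axis, cells without a count drawn at 0), a bar at the median and a diamond at the mean. Several transcripts found in at least 90% of GSK-J4-treated cells have 2 cells far to the right of all others, such as *Il18* with 5958 and 3382 against a median of 74.4, while the 3 highest cells of *Opn1sw* lie close together (287, 275 and 275).

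Promoters are shown for both opsins and *Arr3*, the genes on which the description of cone identity turns. The windows run from 250 bases before to 50 bases after the transcript start (RefSeq, GRCm38.p6, 5′ to 3′ on the strand of the gene), and capitals mark TAATC or its complement GATTA, the core letters bound by photoreceptor homeodomain factors such as CRX.
*Opn1sw*, chr6:29380464-29380763, minus strand: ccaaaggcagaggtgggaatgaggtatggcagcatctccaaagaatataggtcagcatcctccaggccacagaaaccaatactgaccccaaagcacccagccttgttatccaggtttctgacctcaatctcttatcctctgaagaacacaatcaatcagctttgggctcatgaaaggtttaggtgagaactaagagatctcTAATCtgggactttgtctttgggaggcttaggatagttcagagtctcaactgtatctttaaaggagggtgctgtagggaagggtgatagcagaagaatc
*Opn1mw*, chrX:74127216-74127515, plus strand: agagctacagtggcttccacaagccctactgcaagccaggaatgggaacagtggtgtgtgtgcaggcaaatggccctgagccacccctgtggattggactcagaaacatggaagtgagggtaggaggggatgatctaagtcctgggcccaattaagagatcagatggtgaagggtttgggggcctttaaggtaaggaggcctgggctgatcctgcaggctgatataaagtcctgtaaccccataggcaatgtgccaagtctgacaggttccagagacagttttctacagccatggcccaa
*Arr3*, chrX:100605247-100605546, plus strand: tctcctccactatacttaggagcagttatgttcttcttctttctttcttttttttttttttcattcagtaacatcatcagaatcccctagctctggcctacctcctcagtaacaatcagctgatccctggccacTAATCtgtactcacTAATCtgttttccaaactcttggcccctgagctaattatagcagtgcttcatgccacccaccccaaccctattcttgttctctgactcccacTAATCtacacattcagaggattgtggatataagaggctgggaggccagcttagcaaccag
The *Opn1sw* window held 1 match, the *Arr3* window 3 and the *Opn1mw* window 0. Of 7 cone genes with a window, 4 held a match (57.1%), against 20.4% of the 13028 genes of the count table with a window and 22.0% of all 32851 windows.

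Of the 9 genes of the activation arm of cone phototransduction, 6 were counted in 50% or more of the cells, against the 4.17% of all genes given above. Here and below, genes of a group are ordered by counts per 10000, and whether gene length moves these was not tested. S-opsin transcripts reached 3 counts in more cells than M-opsin transcripts. *Opn1sw* had 7050 counts (interval 6886 to 7217), a mean of 57.2 and a median of 28.8 counts per 10000, and at least 3 counts in 81 of 85 cells, with a highest level of 287. *Opn1mw* had 4842 counts, a mean of 37.0 but a median of only 3.55 counts per 10000, and at least 3 counts in 28 cells, with a highest level of 412. The annotated *Opn1sw* gene overlaps *Calu* on the other strand.

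Of the transducin genes, the gamma subunit was counted most widely. *Gngt2*, the gamma subunit of cone transducin, had at least 3 counts in 79 cells (mean 62.2, lowest 7.47, median 43.8, highest 351 counts per 10000). *Gnb3*, its beta subunit, had a mean of 7.43 and at least 3 counts in 35 cells. *Gnat2*, its alpha subunit, had a mean of 5.37 and at least 3 counts in 32 cells. Means in columns 1 to 6 and in columns 7 to 12 were 61.9 and 62.6 for *Gngt2*, 41.6 and 72.4 for *Opn1sw* and 3.44 and 7.26 for *Gnat2*.

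The effector and channel genes were seldom counted apart from *Pde6h*. *Pde6h*, the inhibitory subunit of the cone phosphodiesterase, had a mean of 26.0 and a median of 3.24 counts per 10000, with at least 3 counts in 30 cells. The mutated gene itself, *Pde6c*, had 69 counts in 17 cells, of which 36.2% lay in 1 cell (mean 0.697 per 10000). Counts per gene do not show the mutation, so they check no genotype. The channel subunits *Cngb3* and *Cnga3* had 104 counts in 30 cells and 27 counts in 13 cells. *Pde6c* and *Cngb3* were among the 3285 of all 17774 genes with no count in the GSK-J4-treated library.

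Of 15 genes of recovery and cGMP synthesis, 5 reached 50% of the cells. *Guca1a*, which encodes a calcium sensor that stimulates guanylate cyclase, was the highest (mean 48.2, median 33.7, highest 291 counts per 10000) and had at least 3 counts in 81 cells. *Arr3*, cone arrestin, had a mean of 10.8, a median of 4.62 and at least 3 counts in 43 cells. *Pdc*, phosducin, which binds transducin beta and gamma subunits, had a mean of 9.70, and *Rcvrn*, recoverin, 4.59. The guanylate cyclase gene *Gucy2e* had 73 counts in 28 cells and *Gucy2f* had 2 counts.

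Of 18 outer segment and cilium genes, 7 reached 50% of the cells and 1, *Rom1*, did so with 3 or more counts. The group was led by *Rom1* (mean 11.1) and *Prph2* (5.02), which shape disc rims, and *Tulp1* (5.63), while *Arl13b* had no count. Of 19 synaptic genes, 8 reached 50% and none with 3 or more counts, led by the syntaxin gene *Stx3* (4.82) and the vesicle genes *Rab3a* (3.24) and *Syt1* (2.57). Of 14 photoreceptor transcription factors, only *Thrb* (68 cells, 31 with 3 or more counts, mean 4.39) and *Rora* (58 cells, 39 with 3 or more, mean 14.9) reached 50%. *Thrb* encodes the thyroid hormone receptor that M-opsin expression depends on. *Rora* reached 569 and 454 counts per 10000 in 2 partner wells, against a median of 2.66. *Crx* was counted in 40 cells and *Rxrg* in 15.

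In most cells 1 opsin made up the bulk of the opsin counts. A cell held 1 to 1234 opsin counts (median 33), and 83 cells had a count of each opsin (97.6%, interval 91.8 to 99.7%). With 3 or more counts of each required, 27 cells had both (31.8%), 54 only *Opn1sw*, 1 only *Opn1mw* and 3 neither. Thinned to 800 counts per cell, 36.2% of cells were expected to hold both. Of the 67 cells with at least 10 opsin counts, 42 had under 10% of them from *Opn1mw*, 11 had 10 to 50%, 14 had over 50% and 7 of these over 90%.

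In the 15 cells of any depth in which *Opn1mw* exceeded 50% of opsin counts, the median level of *Opn1mw* was 138 counts per 10000 and that of *Opn1sw* 18.1. In the other 70 cells the medians were 2.21 and 38.3. Of the 15, 7 lay in columns 1 to 6 and 8 in columns 7 to 12, and only 1 pair of partner wells held 2 of them. Over all cells the levels of the opsins had a Spearman correlation of -0.0412 (-0.0192 and -0.158 by column set). These points share library and depth, and ties at a single *Opn1mw* count.

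**Figure D4:**
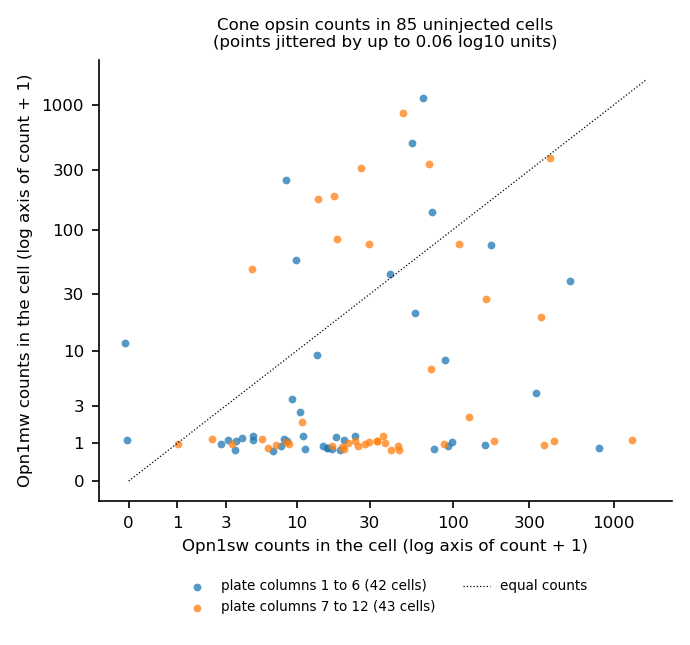
Counts of *Opn1mw* (y axis) against *Opn1sw* (x axis) in each of 85 uninjected cells, on log axes of the count plus 1, with points jittered and coloured by plate columns. A row of 55 cells lies at exactly 1 *Opn1mw* count while *Opn1sw* ranges up to 1233, and a separate scatter of cells lies above the line of equal counts.

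Cells with 3 or more counts of *Opn1mw* often held 3 or more of *Pde6h*. Of 28 cells with at least 3 counts of *Opn1mw*, 20 also had at least 3 of *Pde6h* (71.4%, interval 51.3 to 86.8%), against 10 of the 57 other cells (17.5%, interval 8.75 to 29.9%). By column set, both genes passed in 12 and 8 cells, *Opn1mw* alone in 3 and 5, *Pde6h* alone in 3 and 7, and neither in 24 and 23. Exactly 1 count of each gene was found in 46 cells, where both levels are the same number, 10000 over the depth of the cell, so no correlation of their levels is given. Cells with 3 or more counts of *Opn1mw* were deeper (median 10951.5 counts) than those with exactly 1 (median 5844), and the part of depth was not tested. Over the 15 pairs of cone markers the median Spearman correlation of levels was 0.216, a value that cells with exactly 1 count of both genes of a pair also enter. Over all 274911 pairs of the 742 genes found in at least 50% of cells it was 0.0839. With totals taken without the genes found in at least 90% of GSK-J4-treated cells, these medians were 0.186 and 0.0800. With the main totals, the median over 6 pairs of olfactory and vomeronasal receptor genes was 0.269. It was 0.169 over 78 pairs of mitochondrial genes and 0.0966 over 2016 pairs of ribosomal protein genes.

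The strongest correlations lay elsewhere. The 10 highest were all among genes of the class found in at least 90% of GSK-J4-treated cells or *Ccdc93*, led by *Add2* with *Pcdhb13* (0.904, with 0.894 and 0.906 by column set), *Gm45336* with *7420701I03Rik* (0.884) and *Shroom2* with *Trpm4* (0.855). The median over pairs of the 24 genes of that class was 0.470, or 0.572 when the totals were taken without these genes. Over pairs of the 188 genes with no count in the GSK-J4-treated library it was 0.107. The highest of those, *Rpl41* with *Gm10076* (0.734), share sequence, since 73.2% of the 45-base windows of *Gm10076* occur in *Rpl41* or its copies.

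Every cell held counts of rod genes. The 11 rod markers took 0.355% of counts (interval 0.344 to 0.366%), from 0.0342 to 7.44% in a cell (median 0.284%), and 5 of them reached 50% of the cells (2 with 3 or more counts). Among these were *Pde6g* (mean 19.7), *Gngt1* (11.3), *Sag* (8.82) and *Gnat1* (1.54), while the defining rod factors *Nrl* and *Nr2e3* had 11 and 10 counts. In 5 cells the rod markers exceeded the cone markers, and the rod share divided by the cone share had a median of 0.222. The source of the rod counts was not tested.

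Markers of other retinal cells took small shares, the largest for Müller glia. The 10 Müller glia markers took 0.118% of counts, with *Apoe* (mean 9.36, 71 cells, 12 with 3 or more counts) the highest and 36.8% of the group in 1 cell of 12611 counts, where they made up 3.91% of counts and cone markers 0.317%. In 2 more cells, of 6421 and 8324 counts, Müller glia markers also exceeded cone markers (2.35% against 0.343%, and 1.78% against 0.493%). The cell of 12611 counts held 432 of the 764 *Apoe* counts and 364 of the 552 counts of *Lcn2*, a siderophore-binding protein of stressed glia and epithelia. Bipolar markers took 0.0135%, horizontal 0.0131%, ganglion 0.00811%, endothelial 0.00608%, amacrine 0.00520%, pigment epithelium 0.00238% and microglia markers 0.000705%, and no gene of these groups reached 50% of the cells. The table had no row for 4 of 8 microglia markers (*C1qb*, *C1qc*, *P2ry12* and *Tyrobp*), 2 of 6 pigment epithelium markers (*Rpe65* and *Pmel*), 2 of 8 ganglion cell markers (*Nefl* and *Sncg*) and 1 of 9 bipolar markers (*Cabp5*), so these shares rest on the others. The amacrine markers *Gad2* and *Calb2* had no count. The 1 erythrocyte marker with a row, *Hba-a2*, had 3 counts. The 510 olfactory and vomeronasal receptor genes with a row took 0.626% of counts, and 71 of them had none. The 4 that reached 50% of the cells were *Olfr66* (mean 10.1 counts per 10000, 75 cells), *Olfr845* (10.5), *Olfr735* (3.51) and *Olfr111* (3.05). For each of these 4, the 2 highest cells were partner wells. *Olfr845* reached 424 and 265 counts per 10000 in such a pair, against 34.8 in the third cell.

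Genes of energy metabolism were widely counted at 1 count and less widely at 3 or at even depth. Of 80 nuclear genes of oxidative phosphorylation, 57 reached 50% of the cells, 13 did with 3 or more counts and 5 when cells were thinned to 800 counts. They took together 3.63% of counts and 0.543 to 12.2% of a cell (median 3.17%), with *Cox5b* (mean 28.7), *Cox6c* (22.3) and *Ndufa5* (17.7) highest. All 13 mitochondrial protein genes reached 50% (5 with 3 or more counts, 2 when thinned), at 1.18% of counts, led by *mt-Nd1* (mean 33.4) of complex I. Of 22 genes of glycolysis and lactate, 9 did (3 with 3 or more counts, 2 when thinned), at 0.869% of counts, with *Aldoa* (32.3), *Pkm* (15.7) and *Tpi1* (7.45) highest. The median share per cell was 1.26% in columns 1 to 6 and 0.747% in columns 7 to 12 for mitochondrial genes, and 0.577% and 0.822% for glycolysis.

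Of 84 cytosolic ribosomal protein genes, 64 reached 50% of the cells (13 with 3 or more counts, 2 when thinned), at 3.67% of counts, with *Rpl41* at a mean of 33.6. Of 11 thymosin and actin genes, 5 did and only *Tmsb10* with 3 or more counts. *Tmsb10* held most of their 1.40%, with *Actg1* at 4.82 and *Actb* at 2.34. The nuclear RNA *Malat1* was counted in 81 cells (mean 8.91), in 53 of them exactly once and in 23 at 3 or more counts. The 9 long noncoding RNAs listed took 0.127%.

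Stress and death genes were read against all genes, of which 4.17% reached 50% of the cells and the median gene had a mean of 0.0799 counts per 10000. Antioxidant genes took 0.210% of counts and 6 of 16 reached 50% of the cells (none with 3 or more counts), led by *Prdx2* (mean 6.55) and *Gpx4* (4.36). Heat shock and chaperonin genes took 0.195% with 4 of 18 (none with 3 or more counts), led by *Hspa8* (4.76) and *Hspe1* (4.34). Of 16 genes of endoplasmic reticulum stress, only *Atf4* did (52 cells, 21 with 3 or more counts, mean 3.10), while *Ddit3* (CHOP) was counted in 32. Of 22 cell death genes, only *Parp1* did (69 cells, 59 with 3 or more counts, mean 12.6), with 425 and 178 counts per 10000 in a pair of partner wells against a median of 4.80, and *Ripk3* and *Capn2* had no count. The shares of the last 2 groups (1 of 16 and 1 of 22) lay near that of all genes, and their median means were 0.384 and 0.0985. Of the 8 immediate early genes, none reached 50%, and *Fos* had 124 counts in 27 cells.

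Histone-modifying enzymes, among them the H3K27 demethylases that GSK-J4 inhibits, were counted about as widely as the median gene, found in 7.06% of cells, or more widely. The median member was found in 8.24% of cells for H3K27 demethylation and Polycomb repressive complex 2, in 24.7% for the MLL3 and MLL4 complexes and in 10.6% for histone deacetylases. The 13 genes of H3K27 demethylation and Polycomb repressive complex 2 took 0.0283% of counts and none reached 50% of the cells. *Kdm6b*, a demethylase of H3K27, had 96 counts in 29 cells, and *Suz12*, a subunit of the methylating complex, 32 counts in 18 cells. *Phf1* and *Phf19* had none. The 7 genes of the MLL3 and MLL4 complexes took 0.0363%, led by *Dpy30* (mean 2.63), with *Kmt2d* at 127 counts in 31 cells. The 9 histone deacetylase genes took 0.0215%, led by *Hdac9* (0.800). *Chrnb4*, whose promoter drives the eGFP, was counted in 54 cells (mean 2.83), its neighbours *Chrna3* in 10 and *Chrna5* in 5.

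Levels varied widely between cells. For the 263 genes with a mean of at least 5 counts per 10000, the coefficient of variation over cells was taken after subtraction of counting variance. It exceeded 1 for 224 (85.2%), with a median of 1.72 (1.60 and 1.64 by column set) and a range of 0.486 to 6.19. Weighted by depth the median was 1.14. With each cell counted equally, the steadiest were *Prelp* (0.486), *Prkcz* (0.497), *Cttnbp2nl* (0.529), *mt-Atp8* (0.588) and *Pcdhb13* (0.600). Weighted by depth, *Pcdhb13* came to 1.38 and *Prkcz* to 0.850. Of the cone genes, *Gngt2* (0.876), *Guca1a* (0.973) and *Gnat2* (0.984) were the steadiest, followed by *Opn1sw* (1.17) and *Arr3* (1.36), while *Opn1mw* (2.10) and *Pde6h* (2.21) varied most.

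The most variable genes had 1 or 2 cells far above the next. The highest values were those of *Zfp790* (6.19), *Gm47127* (6.15), *Fam120a* (6.06), *Lcn2* (5.91), *Gm28518* (5.62), *Irs2* (5.61), *Gm43657* (5.58), *Ndufa6* (5.38), *Znrf1* (5.32) and *Cst3* (5.23). For 7 of these 10 the 2 highest cells were partner wells. The order rests on the weighting. Weighted by depth, *Zfp790* came to 2.61 and *Gm28518* to 1.31, while *Gm47127* was highest of the 10 at 4.29. It rests on the wells as well, since *Ndufa6* came to 0.773 in columns 7 to 12 and *Cst3* to 0.731 in columns 1 to 6. *Cst3*, cystatin C, was counted in 82 cells at a median of 3.56 counts per 10000, and 383 of its 765 counts lay in 1 cell. Among the 8767 genes with at least 10 counts, 1214 (13.8%) had over 50% of their counts in 1 cell, together 7.53% of all counts. The 5 with most counts were *Znrf1*, *Fam120a*, *Cst3*, *Apoe* and *Cystm1*, with 71.9% of *Znrf1* counts in 1 cell and exactly 1 count in 57 of its 65 cells.

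**Figure D5:**
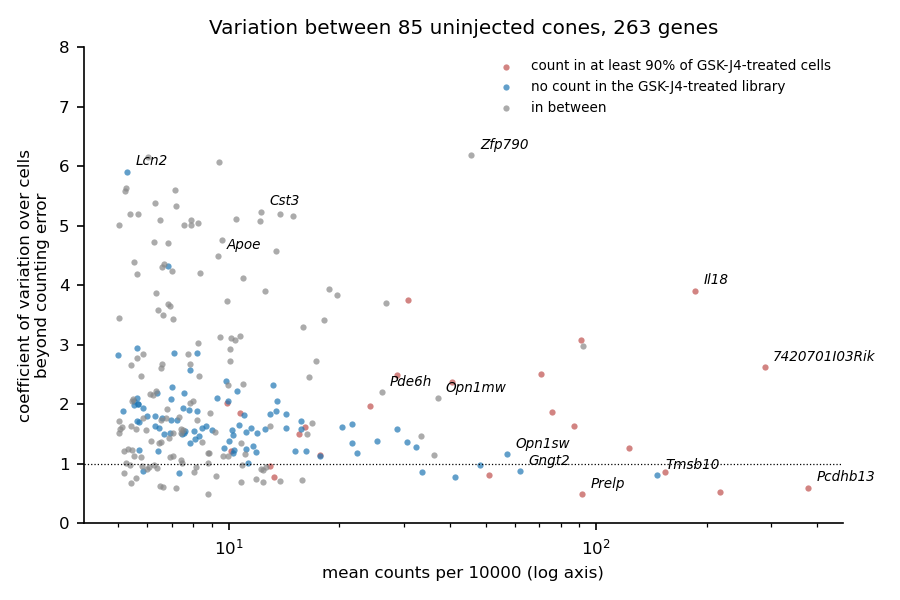
Coefficient of variation over 85 uninjected cells beyond counting error (y axis) against mean counts per 10000 counts of the cell (x axis, log), for 263 genes with a mean of at least 5, coloured by the share of GSK-J4-treated cells that held them. *Pcdhb13*, *Prelp*, *Tmsb10* and *Gngt2* lie under the dotted line at 1, *Opn1mw* and *Pde6h* above 2, and *Zfp790* at 6.19.

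A few genes were counted in only 1 of the column sets. Among the 2868 genes found in at least 20 cells, 7 were found only in columns 1 to 6 and 13 only in columns 7 to 12. *Lcn2* was counted in 33 of 42 cells in columns 1 to 6 (22 with 3 or more counts) and in 0 of 43 in columns 7 to 12. *Arl6ip4* was counted in 32 cells, all in columns 7 to 12. A single cell held 65.9% of the *Lcn2* counts, and another held 57.6% of the *Arl6ip4* counts. These genes were chosen after their values had been seen. *Xist*, transcribed from the inactive X chromosome of females, was counted in 45 cells (17 and 28 by column set). The 4 Y-linked genes listed were counted in 26 (14 and 12). Of these cells, 16 had both, 29 only *Xist* and 10 only listed Y-linked genes. With 3 or more counts required, 1 cell had both, 16 only *Xist* and 4 only listed Y-linked genes. *Gm28518*, also annotated on chromosome Y, was not in that list. It was counted in 27 cells (13 and 14 by column set), 11 of them with 3 or more counts.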

How the data were processed

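GFP-positive cones were sorted 1 per well into 96-well plates, and 1 library was made from uninjected retinae. The authors demultiplexed the reads by plate and cell barcode, aligned 45 bases of each read (CLC Genomics Workbench v.20), collapsed PCR copies that shared UMI and position, counted reads per gene with featureCounts (named in the submitters' processing notes) and summed 3' and 5' counts. They deposited these as whole-number counts without normalization. The genome is named as GRCh38, a human build number. Coordinates here come from GENCODE vM21 (GRCm38) and promoters from RefSeq (GRCm38.p6).

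All 85 deposited cells were used, each scaled to 10000 counts, with Python 3.11.15, pandas 2.3.3, numpy 2.4.6, scipy 1.17.1 and, for size factors, scran 1.30.0 in R 4.3.3. No batch correction, clustering or doublet caller was applied. Shares at 1 depth are exact expectations of thinning without replacement to 800 or 2000 counts. The measure of variation was tested on simulated counts of independent cells, and thinning was tested against repeated draws. The simulation held neither related wells nor the many cells at exactly 1 count. Correlations and well pairs were not tested in this way. Genes named are the 20 of highest mean, those in every cell, up to 4 of highest mean and those at 0 of each list, the 10 most and 5 least variable, the 10 most correlated pairs and the 5 with most counts of which over 50% lie in 1 cell. Others were chosen after their values were seen, as were the pairing of wells and the limit of 3 counts. Members, lists and rules were chosen with earlier results of these data known. Results for some genes are not reported here.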

Additional observations from a re-analysis of the deposited data

How the results depend on the processing

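No paired analysis was possible because there was 1 library per condition. Of 56 values under alternatives, 30 stayed within the 95% interval of the main value, or within 1.5 times of it where none was taken. The other 26 moved, and the cause was not tested except where the alternative itself lowers depth. Intervals of medians came from the ranked values of the cells. The cone marker share of 1.69% was 1.59% in columns 1 to 6, 1.78% in columns 7 to 12 and 2.16% with totals taken without the 35 genes found in at least 90% of GSK-J4-treated cells, which was also chosen after seeing the data. The rod marker share of 0.355% was 0.412% and 0.298% in these column sets, 0.464% as a mean over cells, 0.343% in cells of at least 2000 counts and 0.455% without the 35 genes. Thinned to 800 and 2000 counts, cells with at least 3 cone markers fell from 100% to 71.7% and 90.7%, the median number of genes from 1804 to 412 and 794, genes in at least 50% of cells from 742 to 54 and 167, and cells with both opsins from 97.6% to 36.2% and 52.2%. Cells with both opsins were 100% in columns 7 to 12. With 3 or more counts required, likewise chosen after seeing the data, these came to 68.2% of cells with 3 cone markers, 147 genes and 31.8% of cells with both opsins. The 20 most abundant genes took 25.4% of counts. This was 25.6% in the 82 cells that pass the filter stated in the study and 25.9% with cells weighted by depth. By column set it was 23.3% and 27.7%, in cells of at least 2000 counts 25.8%, and 19.2% when ordered per exonic length. The count of variable genes was 224 of 263 and ranged from 169 with cells weighted by depth to 301 with scran size factors. The genes with a mean of at least 5 counts per 10000 were chosen anew for each scaling and set of cells. The 301 are therefore not out of the 263, and the number chosen there is not given. At this depth *Crx*, *Cngb3* and *Pde6c* had 3 or more counts in 8, 7 and 5 cells, and whether depth or level sets these numbers was not tested.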
